A study of Mus musculus with 27 samples.

Results

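The transcripts of the interleukin-1 (IL-1) family were followed through muscle injury and repair. The set held 10 genes chosen by symbol: the cytokines Il1a, Il1b, Il18 and Il33, the inhibitors Il1rn, Il1r2 and Il18bp, and the receptor chains Il1r1, Il1rap and Il1rl1. All 10 were found in both deposited tables, which listed 55852 entries for injured muscle and 55677 for the control comparison. In total 27 libraries of mouse muscle were used. Of these, 24 came from muscle injected with cardiotoxin (CTX), a snake venom peptide that lyses myofibers, and were collected at D1, D4, D7 and D14 from WT mice and from mice labelled Gsdme KO, 3 libraries for each genotype at each time. Another 3 came from WT control muscle that had received no CTX. The design text names thigh muscle for the injury model and gastrocnemius for the time course, whereas the study describes the control as the uninjured muscle of the opposite leg, so control and D1 libraries may differ in site or share animals, and the labels do not say which animal each came from. The study describes C57BL/6J mice and a KO that affects the whole body, so that every cell type of the KO muscle lacked the intact gene; Gsdme encodes gasdermin E, a pore-forming protein that caspases activate. The age of these mice was not given in the sources used here, the sample titles say KO where the genotype field says knockdown, and no KO control muscle was analysed here. The design text calls the 3 libraries of a group biological triplicates.

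IL-1α, encoded by Il1a, and IL-1β, encoded by Il1b, bind the receptor IL-1R1, which then recruits the accessory chain encoded by Il1rap and signals through MyD88 and IRAK kinases to NF-κB. The family carries its own brakes: the product of Il1rn occupies IL-1R1 without signaling, the product of Il1r2 is a decoy that lacks the signaling domain, and the product of Il18bp holds IL-18 in solution. IL-33 is a nuclear cytokine that acts as an alarm when cells break, and it signals through ST2, encoded by Il1rl1, again with the accessory chain. IL-1β and IL-18 are made as inactive precursors, are cut by caspase-1 and leave the cell through gasdermin pores. Transcript levels therefore show the supply of precursor and not the amount released.

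Il1a and Il1b are neighbors on mouse chromosome 2, both on the minus strand and 54.6 kb apart, and the Il1b gene lies at chr2:129364570-129371139 (GRCm38). Their promoters are shown because this pair of adjacent genes differed widely in level after injury (values below). Each run holds the 300 bases around a RefSeq transcript start on GRCm38.p6 (most of them before it), at chr2:129309923-129310222 for Il1a and chr2:129371090-129371389 for Il1b, written 5′ to 3′ on the minus strand, and capitals mark matches to the TATA box, searched as TATAAA, or to the consensus of AP-1 factors, searched as TGANTCA. Both strands were searched, and the motifs do not overlap here.
Il1a: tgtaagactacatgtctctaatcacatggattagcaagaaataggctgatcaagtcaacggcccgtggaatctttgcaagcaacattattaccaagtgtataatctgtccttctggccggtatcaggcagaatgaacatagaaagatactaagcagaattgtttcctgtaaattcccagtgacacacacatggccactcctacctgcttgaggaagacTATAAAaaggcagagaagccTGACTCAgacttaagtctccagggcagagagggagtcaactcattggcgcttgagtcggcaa
Il1b: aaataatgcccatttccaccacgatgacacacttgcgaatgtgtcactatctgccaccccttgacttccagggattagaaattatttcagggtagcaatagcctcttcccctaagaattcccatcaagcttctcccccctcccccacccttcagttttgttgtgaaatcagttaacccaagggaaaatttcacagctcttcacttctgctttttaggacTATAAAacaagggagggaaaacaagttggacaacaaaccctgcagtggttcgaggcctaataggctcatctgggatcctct
The TATA letters began 32 bases before the start in Il1a and 31 bases before it in Il1b. They occurred in 13.6% of the 32851 promoters of the table and in 6 of the 15 promoters of the 10 genes, the others being 2 of Il33 and, on the opposite strand, 1 of Il18 and 1 of Il1rn. The AP-1 letters occurred in 7.81% of all promoters and, among the 10 genes, in 1 promoter each of Il1a and Il1rn. A match describes letters and not bound factors. The genes for Il1r2, Il1r1 and Il1rl1 also lie together, within 391 kb of chromosome 1.

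The deposited values were TPM, a level per transcript length that sums to the same total in each library, so the read depth is unknown. Between 12329 and 14704 genes reached 1 TPM in the injured libraries. Gsdme was lower in all KO than in all WT libraries at D1, D4 and D7, whereas at D14 the genotypes overlapped (1.27 to 1.96 TPM in KO against 1.46 to 2.26 TPM in WT). The libraries carried muscle markers throughout: the summed level of 8 of 8 mature myofiber markers was from 37091 to 177252 TPM. Several libraries stood apart from their group in the summed level of 4 of 4 leukocyte markers. WT D1 replicate 3 had 147 TPM against 419 and 768 TPM, WT D4 replicate 1 had 636 TPM against 328 and 288 TPM, and KO D4 replicate 2 had 52 TPM against 333 and 261 TPM. In KO D4 replicate 2 the 5 of 5 markers of regenerating fibers and satellite cells also summed to 41.3 TPM, against 687 and 737 TPM in the other KO D4 libraries, whereas in WT D1 replicate 3 the myofiber sum of 144286 TPM was within the control range of 137135 to 150799 TPM. Results that rest on these 3 libraries are given below with and without them, a choice made after the values were seen. In whole muscle, fewer cells of a type and less RNA per cell cannot be told apart.

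Before injury the family was almost silent apart from Il33 and Il1r1. In control muscle Il33 stood at 4.31 ± 0.484 TPM and Il1r1 at 2.99 ± 0.531 TPM (SD, n = 3), followed by Il18 at 1.44 ± 0.0902 TPM and Il18bp at 1.4 ± 0.163 TPM, which overlapped each other. Il1rap, Il1r2 and Il1rl1 were below 1.2 TPM in every control library, and Il1b, Il1rn and Il1a were no higher than 0.48 TPM. At D1 in WT muscle the order was different. Il1rn led at 24.2 ± 18.3 TPM, followed by Il33 at 13.4 ± 8.44, Il1b at 12.7 ± 9.91, Il1r2 at 12.6 ± 10.9, Il1r1 at 10.6 ± 4.78 and Il1rl1 at 9.91 ± 7.2 TPM, and these neighbors did not differ beyond their spread. Il18bp (5.31 ± 2.45 TPM), Il18 (5.2 ± 3.46 TPM) and Il1rap (2.96 ± 1.48 TPM) were lower, and Il1a stayed at 0.2 ± 0.04 TPM. Il1a did not reach 1 TPM in any library and was the only one of the 10 genes that did not pass the filter for testing (at least 1 TPM in at least 3 libraries).

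**Figure D1:**
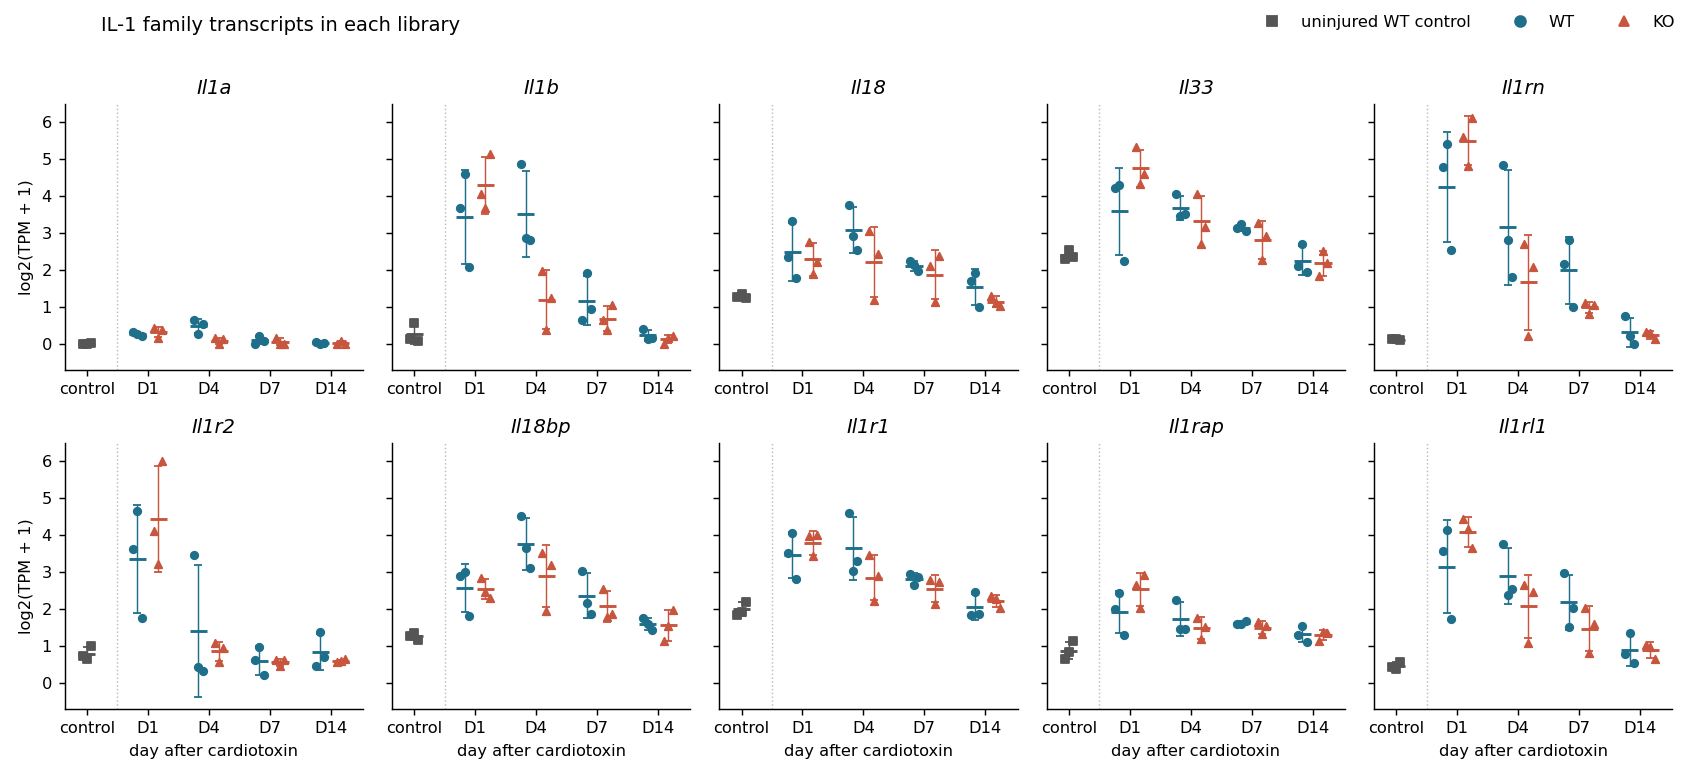
Level of each IL-1 family gene as log2(TPM + 1) (y axis) in control muscle and at each day after cardiotoxin (x axis), with 1 symbol per library, a line at the group mean and bars of ± 1 SD (n = 3). Control libraries, left of the dotted line, come from a separately normalized table. Most genes were highest at D1 or D4 and nearer to control by D14, and Il1a stayed below 1 TPM throughout.

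To ask how injury changed the family, WT D1 muscle was compared with control muscle in the table that held both (WT D1 values differ by up to 0.63 TPM between the tables). Of the 9 tested genes, 8 rose and none fell (limma on log2(TPM + 1), Benjamini-Hochberg adjusted p under 0.05 over all genes tested, which is meant by called below). This has to be read against a broad shift, since 55.4% of the 13041 genes tested were called higher and 5.64% lower. The median log2 difference was 1.5 over the 9 genes and 0.66 over all genes.

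The inhibitor Il1rn and the cytokine Il1b showed the widest gaps. Il1rn was at 0.09, 0.09 and 0.07 TPM in control libraries and at 26.7, 41.33 and 5.16 TPM at D1, a log2 difference of 4.16 ± 0.61 (SE, limma adjusted p = 0.00204). Il1b was at 0.09, 0.48 and 0.06 TPM in control and at 11.8, 23.0 and 3.22 TPM at D1, a log2 difference of 3.19 ± 0.55 (limma adjusted p = 0.00288). For both genes the lowest injured library, replicate 3, was still far above the highest control library. Il1rl1, the IL-33 receptor, went from 0.373 ± 0.0945 to 9.92 ± 7.21 TPM (n = 3), a log2 difference of 2.69 ± 0.54 (limma adjusted p = 0.00448). Il1r2, the decoy, rose by a log2 difference of 2.57 ± 0.62 and Il1r1, the signaling receptor, by 1.5 ± 0.32. These 5 rises were called under every alternative in which the gene was tested.

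The IL-18 arm and the accessory chain rose less. Il18 was at 1.43, 1.53 and 1.35 TPM in control and at 4.12, 9.28 and 2.43 TPM at D1 (log2 difference 1.21 ± 0.37, limma adjusted p = 0.0212), and its inhibitor Il18bp rose by 1.29 ± 0.32 (adjusted p = 0.00986). Il1rap rose by 1.04 ± 0.30 (adjusted p = 0.018). All D1 libraries lay above all control libraries for these genes. The share of all genes without overlap was counted only between genotypes, so separation from control or between days describes single genes only. The calls depended on scaling. Median-of-ratios scaling lowered the median of all genes to 0.06. With it the log2 differences were 0.69 for Il18, 0.77 for Il18bp and 0.60 for Il1rap, and none was called (limma adjusted p from 0.0553 to 0.0977). Il18 and Il1rap also lost their calls when 1 of several libraries was left out: for Il18 any control library, and for Il1rap control replicate 1 or 2 or WT D1 replicate 1.

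Il33, the highest member in control muscle, was not called. It was at 3.96, 4.86 and 4.1 TPM in control and at 17.73, 18.85 and 3.7 TPM at D1, so that replicate 3 lay below all controls (log2 difference 1.19 ± 0.50, limma adjusted p = 0.0693). Without WT D1 replicate 3 the difference was 1.87 (limma adjusted p = 4.28e-06). All 9 tested genes were then called, but the share of all genes called in that fit is not given here. All 9 were also called with the replicate number as a block (Il33 1.19, adjusted p = 0.0283), although same-numbered control and D1 libraries did not deviate together (r from 0.002 to 0.061). Beside these differences, the 10 of 10 neutrophil markers summed to 5.68 to 10.8 TPM in control and 73.4 to 753 TPM at D1 (Ly6g at 0 in all controls), the 6 of 6 monocyte markers to 53.1 to 72.2 and 244 to 1348 TPM, and the 12 of 12 macrophage markers to 183 to 218 and 593 to 1826 TPM. Their part in the rises was not tested.

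Genes of the wider pathway were also higher at D1, where 55.4% of all tested genes were called higher. Of 20 tested genes of the NF-κB and IL-1 target list all 20 were called higher (median log2 difference 1.83), led by the monocyte attractant Ccl2 (1.95 ± 0.555 to 395 ± 323 TPM), the iron-binding acute-phase gene Lcn2 (1.56 ± 0.379 to 92.2 ± 54.4 TPM) and the acute-phase gene Saa3 (0.0733 ± 0.127 to 27.6 ± 12.2 TPM). Of 16 signaling genes 13 were called higher (median 0.89), with the largest rises in the adaptor Myd88 (4.58 ± 0.56 to 37 ± 19.8 TPM) and the kinases Irak4 (1.35 ± 0.186 to 7.28 ± 3.81 TPM) and Irak2 (6.43 ± 1.84 to 24.4 ± 12.8 TPM). Of 11 tested genes for cytokine maturation and release 10 were called higher (median 2.06), among them the inflammasome adaptor Pycard (0.327 ± 0.0862 to 31.3 ± 16.7 TPM) and the pore protein Gsdmd (3.47 ± 0.822 to 22.5 ± 12.6 TPM). Among other receptors of the family, Il1rl2, the IL-36 receptor, was called higher (1.22 ± 0.261 to 4.19 ± 1.44 TPM) and 1 other tested gene was not. None of the 5 other ligands passed the filter. Of the IL-18 and IL-33 targets 1 of 9 passed, the macrophage arginase Arg1, and it was called higher (0.16 ± 0.184 to 90.9 ± 64.1 TPM).

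From D1 to D4 the genotypes were first examined separately. The study describes 2 sequencing batches, and that of the WT D1 libraries was not settled. The WT step may therefore cross batches where the KO step does not. In WT muscle none of the 9 genes was called, against 14.6% of 15718 genes called higher and 5.27% called lower, and the 9 genes had a median log2 difference of 0.07 (0.17 over all genes). An unadjusted p was under 0.05 for 2 of them (Il1r2 and Il18bp), against 32.6% of all genes. In KO muscle 6 of 9 fell and none rose, against 7.18% called higher and 12.2% called lower, with a median of -1.44 (-0.15 over all genes). Il1b was at 11.78, 22.98 and 3.21 TPM at D1 and at 28.24, 6.35 and 5.98 TPM at D4 in WT muscle. In KO muscle it was at 15.71, 11.71 and 34.42 TPM at D1 and at 2.95, 0.31 and 1.35 TPM at D4. The days overlapped in WT and did not overlap in KO, where Il1b fell by 3.09 ± 0.59 on the log2 scale (limma adjusted p = 0.00187), whereas the WT difference was 0.07 ± 0.59 (adjusted p = 0.953).

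The 2 inhibitors of IL-1 followed. Il1rn was at 47.06, 26.92 and 67.71 TPM in KO muscle at D1 and at 5.54, 0.17 and 3.2 TPM at D4, and it fell by 3.83 ± 0.74 (limma adjusted p = 0.00213). Il1r2 was at 16.27, 8.22 and 63.6 TPM at D1 and at 1.1, 0.49 and 0.91 TPM at D4, and it fell by 3.58 ± 0.74 (adjusted p = 0.0035). Neither gene's KO libraries overlapped between these days. The highest Il1r2 value, in KO D1 replicate 3, came with the highest sum of the neutrophil markers in the series (3803 TPM against 704 and 363 TPM in the other KO D1 libraries), and the part of these cells was not tested. Il33 (by 1.44 ± 0.45, adjusted p = 0.0312), its receptor Il1rl1 (by 2.01 ± 0.55, adjusted p = 0.0171) and the accessory chain Il1rap (by 1.05 ± 0.27, adjusted p = 0.0135) also fell in KO muscle.

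Il18 and Il18bp were not called in this step. In KO muscle Il18 was at 5.8, 2.7 and 3.67 TPM at D1 and at 7.25, 1.27 and 4.37 TPM at D4, with overlapping days and a log2 difference of -0.07 ± 0.45 (limma adjusted p = 0.921). In WT muscle Il18 was at 4.1, 9.07 and 2.42 TPM at D1 and at 12.6, 6.56 and 4.85 TPM at D4 (0.59 ± 0.45, adjusted p = 0.398). Il18bp reached its highest level at D4 in both genotypes, at 13.7 ± 7.37 TPM in WT and 7.18 ± 3.91 TPM in KO muscle, with differences from D1 of 1.19 ± 0.42 (adjusted p = 0.055) and 0.36 ± 0.42 (adjusted p = 0.559).

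The KO call of 6 genes fell to 3 (Il1b, Il1rn and Il1r2) without KO D1 replicate 1 and likewise without KO D4 replicate 2, and with only the KO D1 and D4 libraries in the fit. Same-numbered KO libraries deviated together between these days, and with the replicate number as a block in a fit of only these 6 libraries Il1r1 was also called (a fall by 0.94, adjusted p = 0.0362). The adjusted p of Il1r1 was 0.176 in the fit of these 6 libraries without the block, and 0.0801 without and 0.0692 with it in the fit of all groups. In WT muscle Il1r2 fell by 2.73 without WT D1 replicate 3 (adjusted p = 0.0209) and fell by 2.96 without WT D4 replicate 1 (adjusted p = 0.00586), whereas Il18bp rose by 1.41 without WT D1 replicate 2 (adjusted p = 0.0393) and by 1.51 without WT D4 replicate 3 (adjusted p = 0.0298). With WT D1 replicate 3, WT D4 replicate 1 and KO D4 replicate 2 all left out, 4 genes were called lower in WT muscle (Il1r2, Il1rn, Il1rap and Il1rl1, against 8% of all genes). In KO muscle the same 6 genes were called lower, and the share of all genes called there is not given here. The test of the difference between the KO and WT steps called none of the 9 genes, and 0% of all genes in either direction. It was -3.16 ± 0.83 for Il1b (adjusted p = 0.204) and had an unadjusted p under 0.05 for 6 genes, against 23.3% of all genes. Without these 3 libraries the Il1b value was -1.40 ± 0.61 (adjusted p = 1), and the other 5 genes were near 0, with -0.33 for Il1rn, -0.00 for Il1r1, -0.14 for Il1rap, -0.36 for Il33 and -0.13 for Il1rl1.

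**Figure D2:**
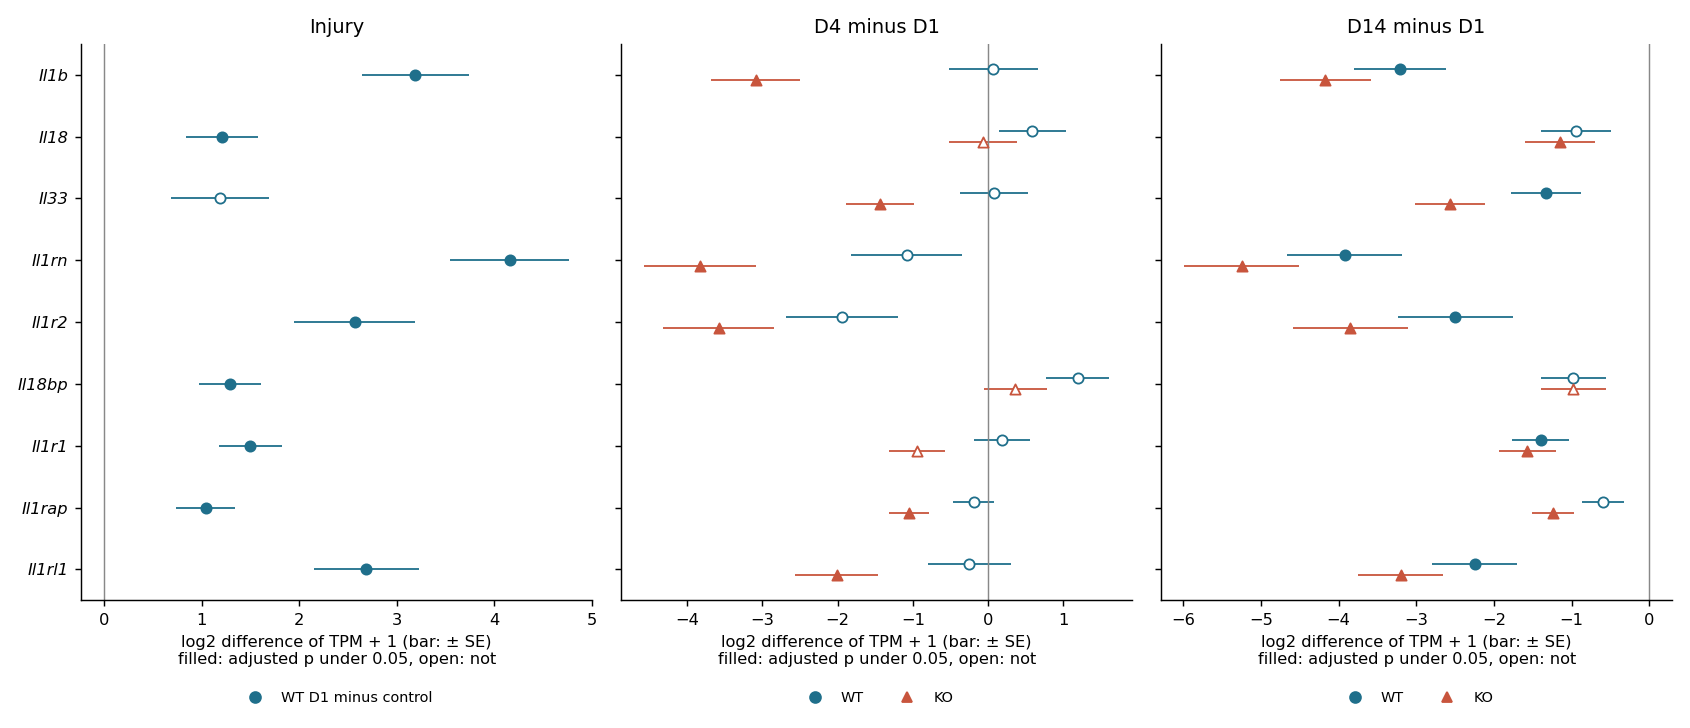
Log2 difference of TPM + 1 (x axis, bars of ± SE) for each tested gene (y axis) between WT D1 and control, between D4 and D1, and between D14 and D1, with circles for WT and triangles for KO and filled symbols for an adjusted p under 0.05. In the D4 panel 6 KO symbols and no WT symbol are filled, while the test of the difference between genotypes called no gene.

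Among pathway genes in the same step, 4 of 23 tested NF-κB and IL-1 targets were called lower in WT muscle and 13 of 23 in KO muscle, and none higher. Of all genes, 5.27% were called lower in WT and 12.2% in KO muscle. The test of the difference between the KO and WT steps called no gene of the pathway lists. The values below include the 3 libraries that stood apart, and fits of the lists without them are not given here. Ccl2 fell from 395 ± 323 to 42.3 ± 53.4 TPM in WT and from 506 ± 160 to 11 ± 10.7 TPM in KO muscle. Lcn2 fell from 92.1 ± 54.3 to 7.52 ± 10.5 TPM and from 51.7 ± 7.18 to 1.87 ± 0.745 TPM, and the neutrophil attractant Cxcl5 from 27.4 ± 21.7 to 9.24 ± 15 TPM and from 35.8 ± 13.6 to 0.333 ± 0.261 TPM. Of the 16 signaling genes 1 was called higher (Tab1, which activates the kinase TAK1, 9.83 ± 1.09 to 18.2 ± 1.66 TPM) and 1 lower (Tab2, 35.3 ± 5.59 to 25.4 ± 6.72 TPM) in WT muscle, and 6 lower in KO muscle, with the largest falls in Myd88 (45.1 ± 8.95 to 18.4 ± 10.6 TPM), Irak2 (35.5 ± 10.1 to 16.5 ± 3.66 TPM) and the NF-κB kinase Ikbkb (25.8 ± 3.77 to 14.8 ± 4.69 TPM). Of 15 tested maturation genes 0 were called in WT and 3 lower in KO muscle: the inflammasome sensor Nlrp3 (5.9 ± 3.72 to 0.533 ± 0.41 TPM), Pycard (40.3 ± 7.67 to 13.8 ± 9.42 TPM) and the sensor Nlrp1a (1.15 ± 0.279 to 0.243 ± 0.194 TPM). In KO muscle the IL-36 cytokine listed as Il1f9 (8.32 ± 9.71 to 0.07 ± 0.0608 TPM), the IL-18 receptor chain Il18rap (4.35 ± 2.98 to 0.527 ± 0.287 TPM) and Arg1 (341 ± 139 to 1.61 ± 1.86 TPM) were also called lower, and no gene of these lists was called in WT muscle.

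From D4 to D7, 2 of 9 genes were called lower in WT muscle. Il1b went from 28.24, 6.35 and 5.98 TPM to 0.58, 2.78 and 0.91 TPM, with no overlap, and fell by 2.35 ± 0.59 (limma adjusted p = 0.0196). Il18bp went from 21.88, 11.43 and 7.65 TPM to 7.22, 3.5 and 2.67 TPM, also with no overlap, and fell by 1.39 ± 0.42 (adjusted p = 0.0397). The other 7 tested genes were not called, against 3.04% of genes called higher and 9.31% lower. Neither call held without WT D4 replicate 1 (falls by 1.67 and 1.01, adjusted p = 0.127 and 0.218) or without WT D7 replicate 3. The Il1b call was also lost without WT D7 replicate 1, and the Il18bp call without WT D4 replicate 2 or WT D7 replicate 2. In KO muscle 0 of 9 genes were called, against 0% of genes in either direction, and 0 had an unadjusted p under 0.05, against 9.89% of all genes. Without KO D4 replicate 2 and the other 2 libraries that stood apart, Il1rn (by 1.40 ± 0.45, adjusted p = 0.0394) and Il18bp (by 1.29 ± 0.32, adjusted p = 0.0125) fell, against 18% of all genes called lower in that fit. In WT muscle the pathway lists gave 2 signaling genes called lower (Irak2, 22.5 ± 4.1 to 10.4 ± 0.46 TPM, and Tab1, 18.2 ± 1.66 to 12.1 ± 1.29 TPM), 2 proteases of the maturation list (Prtn3 of neutrophils, 2.05 ± 1.2 to 0.31 ± 0.276 TPM, and Capn1, 52.4 ± 2.1 to 39 ± 1.46 TPM) and 2 of the NF-κB list (the inhibitor Nfkbie, 9.97 ± 4.37 to 3.91 ± 0.348 TPM, and the subunit Nfkb2, 31.9 ± 10 to 16.6 ± 2.18 TPM). None was called higher, and none was called in KO muscle.

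From D7 to D14 no member was called in either genotype, against 0.923% of genes called higher and 30.9% lower in WT muscle and 0.0827% and 0.477% in KO muscle. The median log2 difference of the 9 genes was -0.78 in WT (-0.45 over all genes) and -0.56 in KO muscle (-0.19 over all genes), and an unadjusted p was under 0.05 for 2 genes in WT (Il1rn and Il1rl1) and 0 in KO, below the shares over all genes of 47.1% and 19.3%. With array quality weights 5 genes were called lower in each genotype, against 55.7% of all genes in WT and 42.2% in KO muscle, so that the WT count was at the background. In WT muscle 10 of 23 NF-κB and IL-1 targets were called lower (median log2 difference -0.80), led by the adhesion molecule Vcam1 (10.7 ± 1.45 to 3.06 ± 1.1 TPM), the protease Mmp3 (7.7 ± 1.36 to 2.89 ± 2.5 TPM) and Nfkb2 (16.6 ± 2.18 to 6.23 ± 1.4 TPM). Of the maturation genes 6 of 15 were called lower, near the background share, among them Pycard (9.32 ± 2.53 to 2.57 ± 1.83 TPM) and Casp8 (12.9 ± 2.49 to 4.2 ± 1.25 TPM), and of the signaling genes 4 of 16, a share below the background, led by Irak4 (5.86 ± 1.17 to 1.93 ± 0.693 TPM), Myd88 (14.9 ± 1.79 to 5.94 ± 1.95 TPM) and Ikbkb (16.1 ± 0.943 to 9.45 ± 0.855 TPM). Il1rl2 was called lower (5.7 ± 0.807 to 2.53 ± 1.44 TPM). In KO muscle 0 genes of the lists were called.

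Over the whole course, a comparison added after the values were seen, 6 of 9 genes were lower at D14 than at D1 in WT muscle (Il1b, Il1rn, Il1r1, Il1r2, Il33 and Il1rl1; background 5.15% called higher and 40.5% lower) and 8 of 9 in KO muscle (all but Il18bp; background 8.43% and 42.8%). Il1rn fell by 3.92 ± 0.74 in WT (limma adjusted p = 0.000421) and fell by 5.25 ± 0.74 in KO muscle (adjusted p = 4.39e-05), and Il1b fell by 3.21 ± 0.59 (adjusted p = 0.000319) and fell by 4.17 ± 0.59 (adjusted p = 4.27e-05). Without WT D1 replicate 3 all 9 genes were called lower in WT muscle, and without WT D1 replicate 2 only 4 were (Il1b, Il1r1, Il1rl1 and Il1rn). The share of all genes called in these fits is not given here, so the counts show only dependence on single libraries. The comparisons of D14 with D1 share their D1 libraries with the step from D1 to D4. Levels at D14 were set beside those of control muscle in the other table and not tested. Il1b and Il33 were close to control. Il1b was at 0.32, 0.1 and 0.11 TPM in WT and 0, 0.12 and 0.15 TPM in KO muscle. Il33 was at 3.32, 5.52 and 2.86 TPM in WT and 2.58, 4.72 and 3.55 TPM in KO muscle. Il1r2 at D14 was at 0.86 ± 0.652 TPM in WT and 0.513 ± 0.0321 TPM in KO muscle, next to 0.737 ± 0.225 TPM in control. Of the tested genes, Il1rl1, Il1rap, Il1rn, Il1r1 and Il18bp had higher means than control in both genotypes, unlike Il1b and Il33. Il1rl1 was at 0.91 ± 0.586 TPM in WT and 0.857 ± 0.259 TPM in KO muscle, next to 0.373 ± 0.0945 TPM in control. Il1rap was at 1.5 ± 0.378 and 1.45 ± 0.217 TPM, next to 0.847 ± 0.309 TPM in control.

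To ask whether loss of Gsdme changed the family, KO was compared with WT muscle on each day. No member was called on any day, on the average of days or in the F test of differences between days, nor under any alternative. The background was as low: 0.00636% of genes were called higher and 0% lower at D1, 0% in both directions at D4, D7 and D14, 0% higher and 0.00636% lower on average, and 0% in the F test. An unadjusted limma p was under 0.05 for 2 of 9 members at D1, 2 at D4 and 0 at D7, at D14 and on average, against 5.38% of all genes at D1, 22.7% at D4, 3.06% at D7, 2.06% at D14 and 3.54% on average.

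At D1 the KO value was the higher for 7 of 9 tested genes, with a median log2 difference of 0.85 (0.09 over all genes), the exceptions being Il18 (-0.19 ± 0.45) and Il18bp (-0.04 ± 0.42). Il33 was at 38.85, 19.23 and 23.28 TPM in KO and at 17.72, 18.83 and 3.69 TPM in WT muscle. The genotypes did not overlap, by a margin of less than 1 TPM (log2 difference 1.16 ± 0.45, limma adjusted p = 0.873), and Il33 was 1 of 9 tested genes without overlap, against 6.71% of all tested genes. Il1rap was at 5.27, 3.09 and 6.54 TPM in KO and at 3.01, 4.42 and 1.46 TPM in WT muscle, with overlap (0.62 ± 0.27, limma adjusted p = 0.873). The study puts both genotypes of the time course in 1 batch. However, the control table, which belongs to its other batch, holds these same 3 WT D1 libraries. At D1 a batch difference from KO muscle, or from control muscle, therefore cannot be told apart from the group. The same limit holds for WT D1 against WT D4 or D14, and for the test of the KO and WT steps. The leukocyte markers summed to 375 to 731 TPM in KO and 147 to 768 TPM in WT muscle. Without WT D1 replicate 3 and the other 2 libraries that stood apart, the Il33 difference was 0.48 (adjusted p = 1).

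At D4 the KO value was the lower for all 9 tested genes, with a median log2 difference of -0.82 (-0.28 over all genes). Il1b showed the widest gap, at 28.24, 6.35 and 5.98 TPM in WT and 2.95, 0.31 and 1.35 TPM in KO muscle. The genotypes did not overlap (log2 difference -2.32 ± 0.59, limma adjusted p = 0.212), and Il1b was 1 of 9 tested genes without overlap, against 14% of all tested genes. The neighboring Il1a, too low to be tested, was at 0.57, 0.2 and 0.44 TPM in WT and 0.11, 0 and 0.09 TPM in KO muscle, again without overlap. Il18 was at 12.6, 6.56 and 4.85 TPM in WT and 7.25, 1.27 and 4.37 TPM in KO muscle, with overlap (-0.86 ± 0.45, adjusted p = 0.238), and Il18bp differed by -0.86 ± 0.42 (adjusted p = 0.223).

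These D4 differences moved with the libraries that stood apart. Leukocyte markers summed to 636, 328 and 288 TPM in WT and 333, 52 and 261 TPM in KO muscle. Neutrophil markers summed to 334, 42.8 and 26.9 TPM in WT and 54.1, 11.9 and 48.6 TPM in KO muscle (Ly6g at 0 in all 6 libraries), and macrophage markers to 3957, 2338 and 1839 TPM and to 2329, 431 and 1939 TPM. Their part in the differences was not tested. Without WT D4 replicate 1, KO D4 replicate 2 and WT D1 replicate 3, the log2 difference was 0.08 ± 0.49 for Il1rn, 0.01 ± 0.28 for Il1r1, 0.00 ± 0.41 for Il18, -0.01 ± 0.35 for Il18bp and 0.10 ± 0.43 for Il1rl1. That of Il1b was -1.23 ± 0.45 (limma adjusted p = 1). The remaining Il1b values were 6.35 and 5.98 TPM in WT and 2.95 and 1.35 TPM in KO muscle. They did not overlap, but 2 libraries against 2 are too few for this to carry weight. The share of all genes without overlap in this smaller set is not given here.

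At D7 and D14 the genotypes overlapped for all 9 tested genes, against 16.5% and 8.42% of tested genes without overlap. The widest difference at D7 was that of Il1rn, with 3.45, 5.96 and 1.01 TPM in WT and 1.15, 0.76 and 1.06 TPM in KO muscle (-1.0 ± 0.74, limma adjusted p = 0.776), and at D14 that of Il18, with 2.27, 2.81 and 0.98 TPM in WT and 1.47, 1.15 and 1.04 TPM in KO muscle (-0.40 ± 0.45, adjusted p = 1). Il18 and Il18bp had a lower KO mean of log2(TPM + 1) on all 4 days. For Il18bp the differences at D1 and D14 were only -0.04 ± 0.42 and -0.03 ± 0.42. The share of all genes with the same sign on all 4 days is not given here. For Il18 the mean of the 4 daily differences was -0.42 ± 0.23 (limma adjusted p = 0.861, exact two-sided permutation of genotype within days p = 0.0821), and for Il18bp it was -0.31 ± 0.21 (adjusted p = 0.861, exact permutation p = 0.185). Il1b averaged -0.51 ± 0.29 (adjusted p = 0.861, exact permutation p = 0.212), a mean over days whose signs differed. The F test of differences between days gave the lowest p of the 9 genes for Il1b (F = 5.10, limma adjusted p = 0.527).

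**Figure D3:**
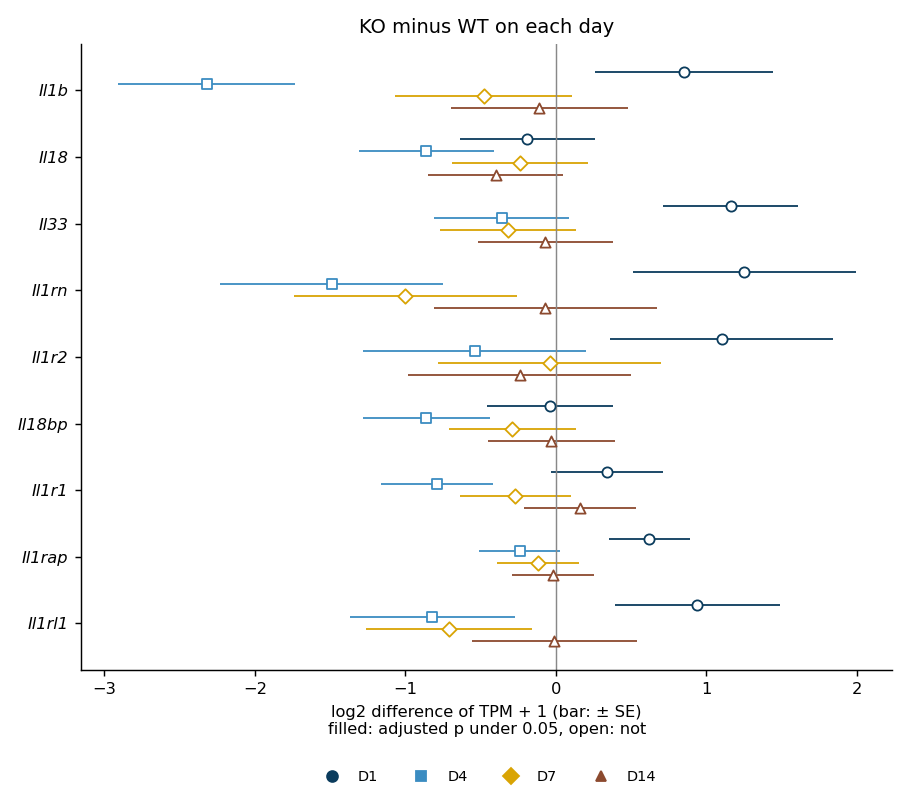
Log2 difference of TPM + 1 between KO and WT muscle (x axis, bars of ± SE) for each tested gene (y axis), with 1 symbol per day. All symbols are open, since no adjusted p was under 0.05; Il1b at D4, at -2.32, lies farthest from 0.

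No gene of the pathway lists was called between genotypes. At D1 the lowest unadjusted p within each list belonged to Gsdme itself (log2 difference -0.77) and Nlrp1a (0.38), Irak2 (0.62) and Irak4 (0.81), Arg1 (2.23) and Ccl17 (0.36), Il18rap (0.82) and Il1rl2 (0.18), Cxcl2 (1.35) and Ptgs2 (0.32), and Il1f9 (1.19). At D4 they were Gsdme (-0.70) and Nlrp1b (-0.69), Ikbkb (-0.68) and Myd88 (-1.0), Nfkbie (-1.21) and Tnfaip3 (-0.81), Arg1 (-2.26) and Ccl17 (0.13), Sigirr (-0.35) and Il1rl2 (-0.57), and Il1f9 (-0.47). The list medians at D4 were from -1.06 to -0.29, next to a median of all genes of -0.28. The lowest came from only 2 tested genes of opposite sign, Arg1 and Ccl17. Another list held only 1 tested gene, and the signaling list, at -0.29, was level with all genes. Medians without the libraries that stood apart are not given here. At D7 the genes of lowest unadjusted p were Gsdme (-0.58) and Pycard (-0.99), Peli1 (-0.38) and Ikbkg (-0.31), Ptgs2 (-0.45) and Nfkbia (0.40), Ccl17 (-0.61) and Arg1 (-0.62), Sigirr (-0.32) and Il1rl2 (-0.46), and Il1f9 (-0.37), and at D14 Casp8 (0.37) and Gsdme (-0.16), Mapk14 (0.11) and Traf6 (0.16), Nfkbia (0.52) and Nfkbiz (0.60), Ccl17 (0.56) and Arg1 (0.12), Il1rl2 (-0.23) and Sigirr (-0.06), and Il1f9 (0.00).

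For 3 pairs, an inhibitor was set against a paired gene as a log2 ratio of TPM + 1 within each library. The pairs were Il1rn with the cytokine Il1b, Il1r2 with the signaling receptor Il1r1, and Il18bp with the cytokine Il18. Il1rn exceeded Il1b in all 6 injured libraries of D1, with ratios of 0.48 to 1.10 in WT and 0.96 to 1.52 in KO muscle. At D4 the ratio in WT muscle was -0.02, -0.06 and -1.0, so that the genes were about level in replicates 1 and 2. Only in replicate 3 was Il1b clearly the higher. In KO muscle the D4 ratio was -0.16 to 0.84. The WT ratio therefore dropped by 1.16 from D1 to D4 without overlap (exact two-sided permutation p = 0.1, the smallest that 3 against 3 can give) and returned to 0.07 to 1.49 at D7. The decoy Il1r2 lay above Il1r1 in some D1 libraries and below it in others, at -1.04 to 0.60 in WT and -0.21 to 2.03 in KO muscle. It was far below Il1r1 at D4, at -2.97 to -1.15 and -2.38 to -1.64. In control muscle this ratio was -1.28 to -1.11. The ratio of Il18bp to Il18 was from -0.51 to 0.95 over all injured libraries, and Il18bp was the higher in all 6 libraries of D4.

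None of the 3 ratios differed between genotypes beyond the spread of libraries on the average of days. The mean difference of KO from WT was 0.19 for Il1rn over Il1b (exact permutation within days p = 0.353), 0.21 for Il1r2 over Il1r1 (p = 0.463, exact permutation) and 0.11 for Il18bp over Il18 (p = 0.481, exact permutation), and all were 0.481 when adjusted over the 3 ratios.

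**Figure D4:**
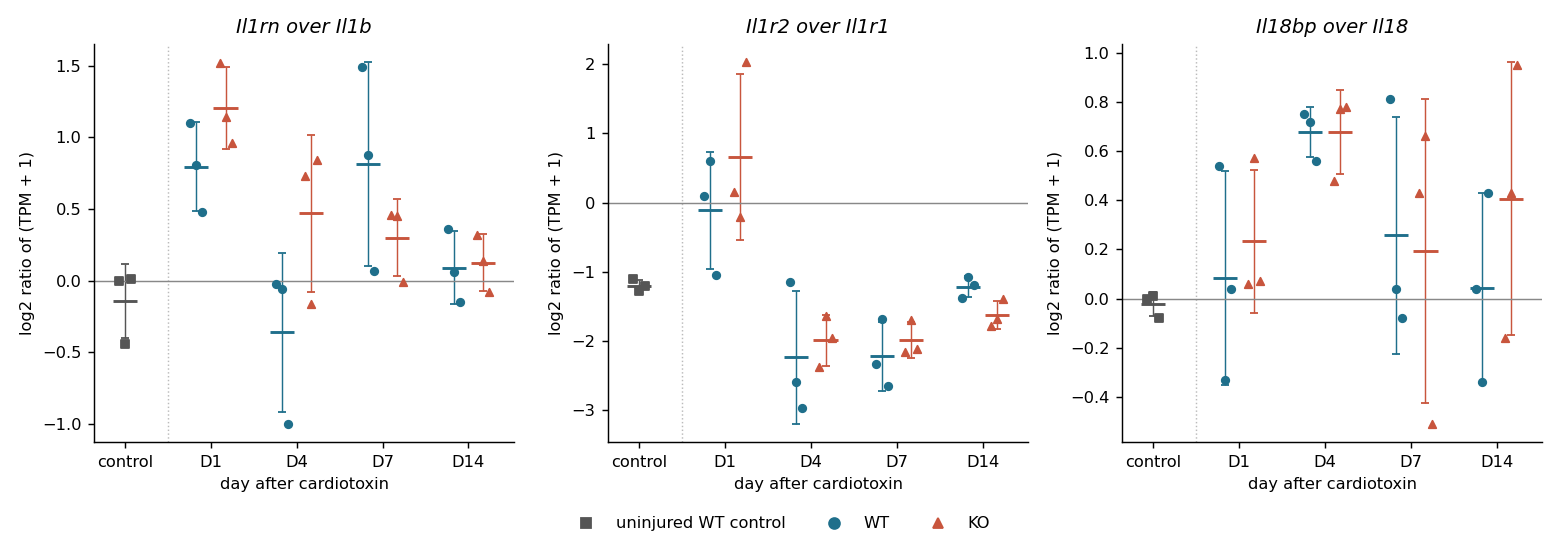
Log2 ratio of TPM + 1 of each inhibitor to its paired gene (y axis) in control muscle and at each day after cardiotoxin (x axis). Each library has 1 symbol, with a line at the mean and bars of ± 1 SD (n = 3). Control libraries come from a separately normalized table. The Il1r2 ratio is highest at D1. The WT ratio of Il1rn to Il1b at D4 is near 0 in replicates 1 and 2 and at -1.0 in replicate 3.

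The genes whose pattern over the 24 injured libraries was most like each member are given as a description, by Pearson's r on log2(TPM + 1); the libraries share days, injury and scaling. Il1rn ran with Clec4d (r = 0.99), Adam8 and Lilr4b (0.98 each). Il1r2 ran with the neutrophil receptors Cxcr2 and Trem1 and the unnamed locus MSTRG.10609 (0.98 each). Clec4d, Cxcr2 and Trem1 are on the neutrophil marker list, but the study uses Clec4d as a marker of a macrophage subset. Il1b ran with Mthfd1l and Gm5150 (0.97) and Zbtb42 (0.96), and Il1a with Tnfrsf9 (0.94), Tceanc2 (0.90) and Stx11 (0.89). Il1r1 ran with Gtse1 (0.98), Dbf4 and Car13 (0.97), of which Gtse1 and Dbf4 act in the cell cycle. Il18bp ran with Cd5l (0.96), a macrophage gene, Chrnd and Reep5 (0.95). Il18 ran with Ifit1bl1, Rps23 and Rps3a1 (0.94 each), Il33 with Ero1b (0.96), Tgfbi and Eps8 (0.95), Il1rl1 with Rdh10, Srm and Edem1 (0.97 each), and Il1rap with Angpt2 (0.97), Mxd1 (0.96) and Srgn (0.95).

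Gene-level TPM does not separate the membrane and soluble forms of Il1rl1 and Il1rap or the secreted and intracellular forms of Il1rn. Strand use was not stated, so the antisense gene Il1bos (0 to 0.63 TPM) cannot be told apart from Il1b, and Il18bp overlaps the opposite-strand gene Numa1 (16 to 40.3 TPM), which was higher than Il18bp in most libraries. Regulatory T cells and type 2 innate lymphocytes are among the cells that respond to IL-33. Their 7 of 7 markers summed to 7.48 to 37.7 TPM in injured libraries. The highest sum, in WT D1 replicate 3, was only 22.2 TPM in the values deposited with the controls. The 8 of 8 mast cell markers summed to 22.1 to 80.2 TPM in the injured libraries. The 7 of 7 markers of fibro-adipogenic progenitors, stromal cells that are known to produce IL-33 in muscle, summed to 821 to 1201 TPM in WT and 759 to 989 TPM in KO muscle at D1.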

How the data were processed

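The authors deposited TPM values per gene in 2 tables, normalized separately: 24 injured libraries, and 3 control with the 3 WT D1 libraries. Per the labels, mRNA libraries (SMARTER kit) were sequenced from both ends and the genome build was mm10; the aligner and counter were not given in the sources used here. The study describes 2 sequencing batches, one of control and injured muscle and one of the time course, and the labels give none; the same WT D1 libraries stand in both tables, so WT D1 shares a batch with the controls or with KO D1, and which was not settled. Groups came from sample titles. Tests used limma 3.58.1 (R 4.3.3) on log2(TPM + 1), with a mean per group, a variance trend and genes of at least 1 TPM in at least 3 libraries, within a table; fold changes on this scale understate changes of low genes. Methods were tested on simulated data. Exact permutations used Python 3.11.15. Marker lists also covered mast cells (22.1 to 80.2 TPM summed in injured libraries), endothelial cells (116 to 289 TPM) and keratinocytes (1.16 to 5.41 TPM, Krt14 at 0 in all groups).

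Pathway genes named are the 3 called with the largest rise and fall per list, and between genotypes the 2 with the lowest p, or every called gene. A gene of the maturation list that this rule names is not reported here. Members, lists and tests were chosen with earlier results of these data known. Same-numbered libraries deviated together (r over 0.1 for all 3 pairs) only between KO D1 and D4 (0.192 to 0.377) and KO D4 and D7 (0.13 to 0.442), a hint from the data, not from labels.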

Additional observations from a re-analysis of the deposited data

How the results depend on the processing

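Counts of called members were recomputed under each alternative. The share of all genes called changed with the alternative too and is not given for each. The counts therefore show only dependence on the processing. Between genotypes the counts of members were 0 under all alternatives. The log2 difference of Il1r1 at D4 turned from -0.79 to 0.25 with array quality weights and to 0.01 without the 3 libraries that stood apart. In the injury comparison the count of 8 became 5 with median-of-ratios scaling or quantile normalization and 2 with a minimum of 5 TPM, where fewer genes were tested, and was 6 to 9 with 1 library left out. These scalings moved the median of all genes from 0.66 to 0.06 and -0.05, and the calls from 7229 higher and 736 lower to 3008 and 2533, or 2553 and 2673. In WT muscle from D1 to D4 the count of 0 became 2 with either scaling, 1 with the 50 most abundant genes removed, with array quality weights or with the replicate block, 4 without the 3 libraries, and 0 to 1 with 1 library left out. From D4 to D7 in WT the count of 2 became 1 with a pseudocount of 0.1, with the 50 most abundant genes removed, with only the groups compared or without the 3 libraries, 4 with array quality weights, and 0 to 2 with 1 library left out; in KO muscle the count of 0 became 2 without the 3 libraries. From D7 to D14 in WT the count of 0 became 3 with a pseudocount of 0.1 and 5 with array quality weights or only the groups compared, and in KO 5 with array quality weights. In KO muscle from D1 to D4 the count of 6 became 3 with only the groups compared, and 3 to 7 with 1 library left out. The replicate block gave 9 calls for injury, 6 for KO D4 against D1, 7 and 9 for D14 against D1 in WT and KO, and 0 between genotypes. The genotype differences of the 3 ratios stayed between 0.04 and 0.35 with 1 library left out and between 0.20 and 0.35 with a pseudocount of 0.1. Where no cause is named, the cause was not tested. Depth is unknown, so detection limits could not be set for Il1a or for genes near 0 at D14.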
